A study of Mus musculus with 12 samples.

Results

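Tropomyosins, caldesmon and the calponins are the proteins that lie along the actin filament and regulate its use by myosin. The genes described are *Tpm1*, *Tpm2*, *Tpm3* and *Tpm4*, which encode the tropomyosins, *Cald1*, which encodes caldesmon, and *Cnn2* and *Cnn3*, the calponins other than the smooth muscle calponin *Cnn1*. They were chosen by gene name from the 12 gene tables of the series, and each of the 7 had a single gene ID among the 54532 gene IDs of every table. RNA from homogenates of whole distal colon, mucosa included, and of urinary bladder was sequenced in 12 libraries from 9 male mice aged 5 to 7 weeks. All mice carried floxed *Yap1* and *Wwtr1* alleles, which encode the transcriptional co-activators YAP and TAZ, and all received 1 mg tamoxifen per day in 5 daily injections, with tissue taken on day 7 after the first. Y/T KO mice carried Myh11-CreERT2, a tamoxifen-activated recombinase driven by the smooth muscle myosin promoter, and Ctrl mice lacked it. Each tissue had 3 Ctrl and 3 Y/T KO libraries, each from 1 mouse. The Ctrl colons were from mice 788, 786 and 787, the Y/T KO colons from 759, 783 and 780, the Ctrl bladders from 784, 785 and 788, and the Y/T KO bladders from 782, 783 and 780, so that 3 mice gave both tissues.

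Tropomyosin is a coiled coil that polymerizes head to tail along the actin filament and decides which myosins and binding proteins reach it. *Tpm1* and *Tpm2* give rise to the muscle isoforms of smooth muscle and, through other exons, of striated muscle. *Tpm3* and *Tpm4* mainly give cytoskeletal isoforms in visceral organs, and *Tpm3* also has a slow skeletal muscle isoform. Caldesmon binds actin, myosin, tropomyosin and calmodulin and restrains the myosin ATPase. It has a long form in smooth muscle and a short form in other cells. Calponin 2 is found in many cells, macrophages and fibroblasts among them, and calponin 3 is best known from brain and non-muscle cells. YAP and TAZ act on DNA through TEAD proteins, whereas many smooth muscle genes are driven by serum response factor, which binds the CArG box.

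In GRCm38, the build of the files, *Tpm1* (ENSMUSG00000032366) lies on the minus strand at chr9:67022590-67049406, *Tpm2* (ENSMUSG00000028464) on the minus strand at chr4:43514711-43523765, *Tpm3* (ENSMUSG00000027940) on the plus strand at chr3:90072649-90100902, and *Tpm4* (ENSMUSG00000031799) on the plus strand at chr8:72134975-72153142. *Cald1* (ENSMUSG00000029761) lies on the plus strand at chr6:34598500-34775473, *Cnn2* (ENSMUSG00000004665) on the plus strand at chr10:79988584-79996062, and *Cnn3* (ENSMUSG00000053931) on the plus strand at chr3:121426497-121458207. GENCODE M21 places all 7 at the same coordinates and lists 16 protein-coding transcripts for *Tpm1*, 10 for *Cald1*, 7 for *Tpm3*, 5 for *Cnn3*, 4 for *Tpm2*, 2 for *Cnn2* and 1 for *Tpm4*. The values below are sums over the transcripts of a gene and do not separate muscle from cytoskeletal isoforms.

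RefSeq gave 9 promoter windows for the 7 genes, each with 250 bases before and 50 bases after a transcript start (GRCm38.p6). They were searched on both strands for the MCAT motif, the TEAD-binding letters CATTCC, and for the CArG box. The windows that held a match are shown, with the matched letters in capitals, since they belong to the gene with the largest difference in Y/T KO bladder (*Cald1*), to a gene below Ctrl in both tissues (*Tpm1*), and to *Cnn2*. None of these matches overlapped another.
*Tpm1*, chr9:67049252-67049281, minus strand, match at -56 from the RefSeq start: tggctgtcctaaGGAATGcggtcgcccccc
*Cald1*, chr6:34598304-34598403, plus strand, match at -153 from the first RefSeq start: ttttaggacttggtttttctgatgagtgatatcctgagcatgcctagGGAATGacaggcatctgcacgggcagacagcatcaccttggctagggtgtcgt
*Cnn2*, chr10:79988534-79988563, plus strand, match at -56 from the RefSeq start: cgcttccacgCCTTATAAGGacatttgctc
The MCAT letters were present in 14.7% and the CArG box in 1.63% of 32851 promoter windows of the same length. The 30 bases shown for *Tpm1* lie inside an exon of GENCODE M21, which places a start of the gene further upstream. No match was found in the windows of *Tpm2*, *Tpm3*, *Tpm4* or *Cnn3*, nor at the second start of *Cald1*, which says only that these letters are not there.

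Levels are given as TPM, a share of the library's transcripts that is scaled to gene length, so genes can be compared with each other. Aligned bases, inferred from the modal quotient of coverage and FPKM, ran from 2.80 to 3.94 gigabases per library. The floxed genes served as a check of the labels. *Yap1* was at 98.6 to 109.8 TPM in Ctrl bladder and 69.4 to 72.1 TPM in Y/T KO bladder, which is -0.54 on the log2 scale (SE 0.08, adjusted p = 0.0641). Colonic *Yap1* ran from 45.8 to 54.9 TPM in Ctrl and from 41.3 to 47.0 TPM in Y/T KO, and *Wwtr1* overlapped between genotypes in both tissues, with log2 fold changes of 0.17 in colon and 0.24 in bladder, opposite to a loss. Gene-level values do not show which exons remain, and other cells of a homogenate keep both genes. All 10 smooth muscle markers were present in every group, and the epithelial markers of each organ were present in that organ, except for a very low *Muc2*. Of the 8 colon epithelium markers, *Muc2* had means of 0.156 TPM in Ctrl colon and 0.564 TPM in Y/T KO colon. It did not pass the filter on low values there.

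In the Ctrl colon the order of levels was *Tpm2*, *Tpm1*, *Tpm4*, *Tpm3*, *Cald1*, *Cnn3* and *Cnn2*. Mean values ± SD (n = 3 mice) were 1152 ± 184, 655 ± 49.1, 331.7 ± 25.02, 231 ± 18.2, 164 ± 53.7, 94.8 ± 39.1 and 39.3 ± 2.14 TPM. The range of each gene lay clear of the next one, except that *Tpm3* overlapped *Cald1*. In the Ctrl bladder *Tpm2* was again first at 4907 ± 547 TPM and *Tpm1* second at 2499 ± 139.7 TPM, but *Cald1* came next at 1509.7 ± 199.8 TPM. It was followed by *Tpm4* at 343 ± 84.7, *Tpm3* at 209 ± 32.1, *Cnn3* at 203 ± 57.7 and *Cnn2* at 146 ± 37.3 TPM. The last 3 could not be ordered, since the range of each overlapped that of the next. The order of means in Y/T KO was the same as in Ctrl in each tissue. For comparison, *Cnn1* was at 506 ± 47.9 TPM in Ctrl colon and 2742 ± 278 TPM in Ctrl bladder.

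**Figure D1:**
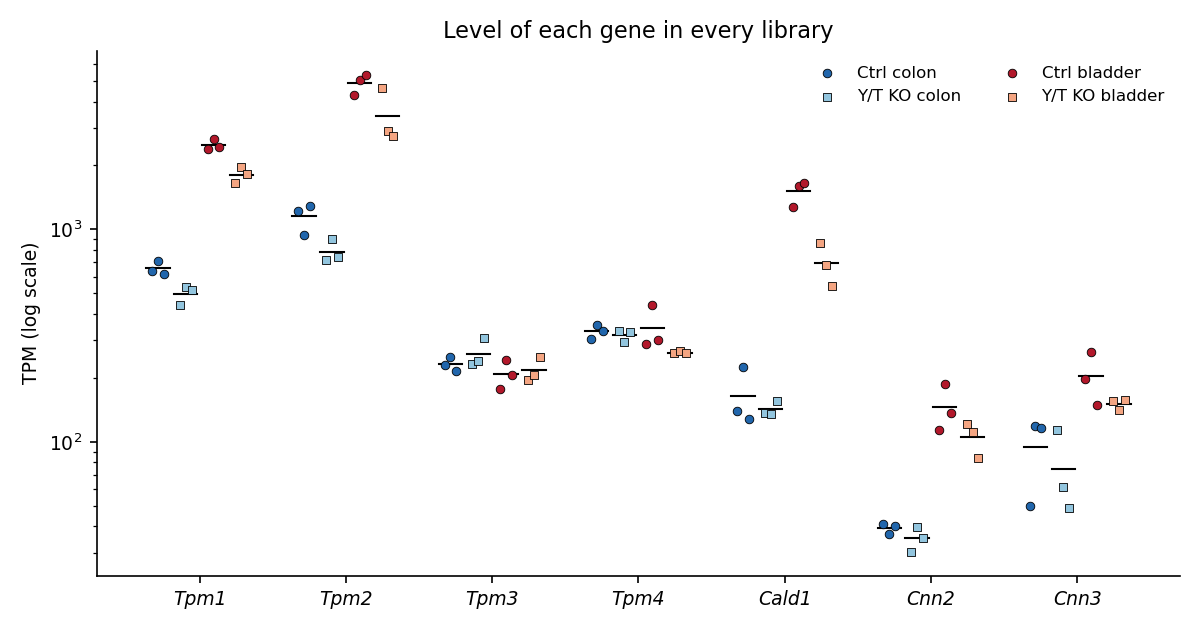
TPM of the 7 genes in every library (log scale), with circles for Ctrl, squares for Y/T KO, blue shades for colon, red and orange for bladder, and a bar at the mean of 3 mice. *Tpm1*, *Tpm2*, *Cald1*, *Cnn2* and *Cnn3* lie higher in bladder than in colon, *Tpm3* and *Tpm4* lie between 178 and 441 TPM throughout, and the 3 Y/T KO bladders lie below the 3 Ctrl bladders for *Tpm1*, *Tpm4* and *Cald1*.

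The first comparison was between the organs of Ctrl mice. The muscle tropomyosins, caldesmon and calponin 2 were more abundant in bladder than in colon, whereas the cytoskeletal tropomyosins were not. *Cald1* ran from 127 to 226 TPM in the 3 colons and from 1280.3 to 1646 TPM in the 3 bladders, with no overlap. Its log2 difference was 3.02 (SE 0.20, 95% interval 2.59 to 3.45, adjusted p = 2.38e-07), the largest of the 7. *Tpm2* was higher by 1.88 (SE 0.20, adjusted p = 1.21e-05), *Tpm1* by 1.71 (SE 0.11, adjusted p = 2.53e-07) and *Cnn2* by 1.64 (SE 0.19, adjusted p = 2.46e-05) on the log2 scale. *Cnn3* had a log2 difference of 0.94 (SE 0.37) with an adjusted p of 0.0541. Its colons, at 49.7 to 119 TPM, lay below its bladders, at 148 to 263 TPM, without overlap. The adjusted p-values come from limma over 19439 genes. Of all genes tested, 26.8% were called higher and 24.3% lower in the Ctrl bladder, and of the 7, 4 were called higher and 1 lower. All 10 smooth muscle markers were called higher there too, with a median log2 difference of 2.20. On log2 TPM minus the mean log2 of these markers, *Cald1* had Ctrl means of -1.25 in colon and -0.46 in bladder. The others of the 7 were lower in bladder on that scale, with *Tpm1* at 0.79 and 0.27 and *Tpm2* at 1.60 and 1.24. The part of tissue make-up in these differences was not tested.

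The gene called lower was *Tpm3*. It ran from 215 to 251 TPM in Ctrl colon and from 178 to 242 TPM in Ctrl bladder, which overlap. After rescaling of the libraries its log2 difference was -0.38 (SE 0.15, adjusted p = 0.0482), and *Tpm4* had a log2 difference of -0.20 (SE 0.15, adjusted p = 0.290). These small differences depend on the scale, because the median of all genes lay 0.24 (log2) higher in the bladder on deposited TPM and 0.03 higher after rescaling. On deposited TPM *Tpm3* differed by -0.16 (adjusted p = 0.416) and *Tpm4* changed sign to 0.02 (adjusted p = 0.905).

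The same contrast in Y/T KO mice gave 4 genes called higher in bladder and 2 called lower, against 27.2% and 25.1% of all genes. *Cald1* spanned 135 to 155 TPM in the colons and 542 to 865 TPM in the bladders, a log2 difference of 2.03 (SE 0.20, adjusted p = 5.8e-06). *Tpm2* differed by 1.86, *Tpm1* by 1.63 and *Cnn2* by 1.34 on the log2 scale, each with an adjusted p of 0.000114 or smaller. *Tpm3* at -0.49 (adjusted p = 0.0146) and *Tpm4* at -0.51 (adjusted p = 0.0125) were called lower, and neither was on deposited TPM (adjusted p = 0.174 and 0.132). *Cnn3* was at 0.88 with an adjusted p of 0.0697, again without overlap between the organs. All 10 smooth muscle markers were called higher in Y/T KO bladder as well, with a median log2 difference of 2.06.

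The main comparison of the study was Y/T KO against Ctrl within each tissue. In the colon none of the 7 genes passed limma's adjusted p of 0.05, and 2 were under 0.05 before adjustment, both with lower values in Y/T KO. By comparison, of the 17500 genes in the test 4.66% were under 0.05 before adjustment with lower values, and 0.08% were called lower. The lack of calls holds for all 16 alternatives tried in the colon. The paper's own test with DESeq2, whose counts were not analysed here, did list *Tpm1* among the genes down-regulated in both colon and bladder.

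*Tpm2*, the most abundant of the group, was at 1222, 944 and 1291 TPM in the Ctrl colons of mice 788, 786 and 787. The Y/T KO colons had 717, 904 and 739 TPM in mice 759, 783 and 780. All Y/T KO values lay below all Ctrl values, the closest being 904 and 944 TPM. The log2 fold change was -0.52 (SE 0.20, 95% interval -0.97 to -0.06, adjusted p = 0.484 in limma).

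*Tpm1* measured 639, 710.0 and 616 TPM in the Ctrl colons against 441, 536 and 517 TPM with Y/T KO, again without overlap. Its log2 fold change was -0.37 (SE 0.14, 95% interval -0.69 to -0.05, adjusted p = 0.482 in limma). *Tpm1* and *Tpm2* were thus 2 of the 7 genes with every Y/T KO colon below every Ctrl colon, a pattern that 8.28% of all tested genes showed.

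The cytoskeletal tropomyosins did not share this separation. *Tpm3* measured 229, 251 and 215 TPM in the Ctrl colons against 232, 239 and 309 TPM with Y/T KO. For *Tpm4* the Ctrl colons had 306, 356 and 333 TPM and the Y/T KO colons 331, 295 and 331 TPM. The groups overlapped for both genes, and the log2 fold changes were 0.19 (SE 0.16, 95% interval -0.17 to 0.55) for *Tpm3* and -0.03 (SE 0.13, 95% interval -0.33 to 0.28) for *Tpm4*.

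Caldesmon RNA (*Cald1*) measured 139, 226 and 127 TPM in the Ctrl colons against 136, 135 and 155 TPM with Y/T KO. The groups overlapped, with 1 high value in the Ctrl colon of mouse 786. Of the pacemaker cell markers, *Ano1* was at 252 TPM in that library against 68.2 to 105 TPM in the other colons, while *Kit* was at 33.8 TPM, inside their 20.3 to 48.4 TPM. The same library was the highest of the 3 Ctrl colons for the summed lymphocyte and plasma cell (747 TPM), fibroblast (2561 TPM) and endothelium (76.8 TPM) markers. The Y/T KO colon of mouse 783, with *Cald1* at 135 TPM, had a higher fibroblast sum (2776 TPM) and an endothelium sum of 72.1 TPM. The part of these cells in the *Cald1* value was not tested. The log2 fold change of *Cald1* was -0.13 (SE 0.20, 95% interval -0.58 to 0.32) with all 6 colons. It turned to 0.07 without that library.

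*Cnn2* measured 41.0, 36.9 and 40.1 TPM in the Ctrl colons against 30.3, 39.6 and 35.2 TPM with Y/T KO (log2 fold change -0.14, SE 0.16). For *Cnn3* the Ctrl colons had 49.7, 119 and 116 TPM and the Y/T KO colons 114, 61.4 and 49.0 TPM (log2 fold change -0.30, SE 0.42). Its spread ran along another line than genotype. The colons of the 3 mice that also gave a bladder were at 49.0 to 61.4 TPM and the other 3 colons at 114 to 119 TPM. Of the other 6 genes, *Tpm4* alone was separated by this division in the colon, at 295 to 330.5 TPM and 330.7 to 356 TPM. Of all genes tested in the colon, 17.1% were separated by it in one direction or the other, a division noticed in these data. In the bladder *Cnn3* ran from 141 to 157 TPM and from 156 to 263 TPM. With a term for these mice the log2 fold change of *Cnn3* in the colon was 0.07 (adjusted p = 0.952). Why the colons of these mice differ was not tested.

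In the bladder *Cald1* had the largest difference between Y/T KO and Ctrl, but again none of the 7 genes passed an adjusted p of 0.05 in limma, while 3 were under 0.05 before adjustment. By comparison, of the 18237 genes in the test 8.18% were under 0.05 before adjustment with lower values, and 0.219% were called lower.

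*Cald1* was at 1280.3, 1603 and 1646 TPM in the Ctrl bladders of mice 784, 785 and 788. The Y/T KO bladders had 865, 682 and 542 TPM in mice 782, 783 and 780. The groups did not overlap, and the ratio of the means was 0.461. The log2 fold change was -1.13 (SE 0.17, 95% interval -1.54 to -0.73, adjusted p = 0.0758 in limma). Over the 17 alternatives the adjusted p ran from 0.0362 to 0.352, and 1 of them called the gene, the fit of all 12 libraries together (adjusted p = 0.0362). Leaving out 1 library gave log2 fold changes from -1.27 to -0.96, all below 0.

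*Tpm1* measured 2401, 2659 and 2436 TPM in the Ctrl bladders against 1661, 1960.2 and 1814 TPM with Y/T KO, without overlap. Its log2 fold change was -0.46 (SE 0.11, 95% interval -0.72 to -0.21, adjusted p = 0.159 in limma). For *Tpm2* the Ctrl bladders had 4298, 5066 and 5356 TPM and the Y/T KO bladders 4608, 2917 and 2761 TPM. The groups overlapped, since the Y/T KO bladder of mouse 782 lay above the lowest Ctrl value. The log2 fold change of *Tpm2* was -0.55 (SE 0.18, 95% interval -0.98 to -0.12, adjusted p = 0.249 in limma).

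*Tpm3* overlapped between genotypes, with 178, 242 and 207 TPM in the Ctrl bladders against 195, 206 and 250.1 TPM with Y/T KO (log2 fold change 0.06, 95% interval -0.29 to 0.41). For *Tpm4* the Ctrl bladders had 288, 441 and 301 TPM and the Y/T KO bladders 260.4, 266 and 263 TPM, without overlap. The Y/T KO values of *Tpm4* were close together, whereas 1 Ctrl value, that of mouse 785, stood high. Its log2 fold change was -0.35 (SE 0.17, adjusted p = 0.383), and -0.16 without the bladder of mouse 785.

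The minor calponins overlapped between genotypes. *Cnn2* measured 114, 187 and 137 TPM in the Ctrl bladders against 121, 111 and 84.2 TPM with Y/T KO (log2 fold change -0.46, SE 0.21, adjusted p = 0.370). For *Cnn3* the Ctrl bladders had 198, 263 and 148 TPM and the Y/T KO bladders 156, 141 and 157 TPM (log2 fold change -0.39, SE 0.21, adjusted p = 0.440). Without the bladder of mouse 785, which was the highest for both, the log2 fold changes were -0.26 for *Cnn2* and -0.18 for *Cnn3*. In all, 3 of the 7 genes had every Y/T KO bladder below every Ctrl bladder, against 10.0% of all genes tested. The median log2 fold change of the 7 was -0.46 in the bladder and -0.14 in the colon, and that of all tested genes was 0.004 and -0.0003.

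**Figure D2:**
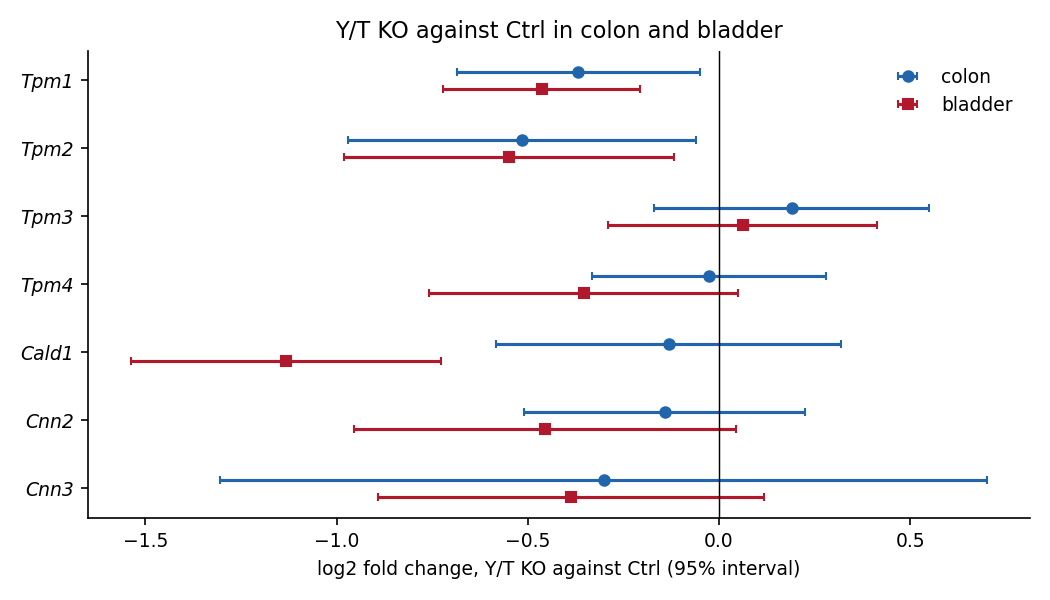
Log2 fold change of each gene in Y/T KO against Ctrl with its 95% interval, for colon (blue circles) and bladder (red squares), 3 mice per group. The interval of *Cald1* in bladder, from -1.54 to -0.73, lies furthest from 0, and the intervals of *Tpm1* and *Tpm2* lie below 0 in both tissues, although no adjusted p was under 0.05.

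The smooth muscle markers as a group were also lower in Y/T KO. The summed TPM of the 10 smooth muscle markers ran from 7819 to 8476 in Ctrl colon and from 5077 to 5976 in Y/T KO colon. The bladder sums ran from 36855 to 47515 in Ctrl and from 17925 to 32596 in Y/T KO. All 10 markers had a negative log2 fold change in each tissue, as did 8758 of 17500 genes in colon and 9033 of 18237 in bladder. None of the 10 had an adjusted p under 0.05 in limma. The paper's own DESeq2 test did list *Acta2*, *Actg2* and *Tagln* among the genes down-regulated in both tissues. Its quantitative PCR and Western blots of colon also gave lower *Acta2* and *Myh11* in Y/T KO. At an unadjusted p under 0.05 there were 8 lower in the colon and 5 in the bladder, against 4.66% and 8.18% of all genes. In a homogenate, fewer smooth muscle cells and less RNA per cell cannot be told apart. Other cell types were not alike either. In the bladder the summed nerve and glia markers ran from 362 to 445 TPM in Ctrl and from 469 to 598 TPM in Y/T KO, and those of endothelium from 152 to 173 TPM and from 175 to 194 TPM, both higher in Y/T KO without overlap. The summed fibroblast markers overlapped in both tissues, but their members differed. *Col1a1*, a collagen gene, had a log2 fold change of 0.49 in colon and -0.75 in bladder, and *Dcn*, decorin, of 0.10 and 0.24, none with an adjusted p under 0.05. The part of these cell types in the values of the 7 genes was not tested.

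Each gene was therefore also set against the smooth muscle markers of its own library, as log2 TPM minus the mean log2 TPM of the 10 markers. *Cald1* in the bladder was at -0.55, -0.50 and -0.35 in Ctrl and at -1.10, -0.85 and -0.97 in Y/T KO, a difference of -0.51 with no overlap (exact permutation p = 0.1, the smallest that 3 against 3 allows). In the colon the difference for *Cald1* was 0.42 with overlap (exact permutation p = 0.3). *Tpm2* differed by 0.03 in colon and 0.07 in bladder and *Tpm1* by 0.18 and 0.16 on this scale, all with overlap. *Tpm3* differed by 0.74, *Tpm4* by 0.52 and *Cnn2* by 0.41 in the colon, each with every Y/T KO colon above every Ctrl colon (exact permutation p = 0.1 each). *Cnn3* overlapped in both tissues. Over the 14 comparisons of this kind the smallest adjusted p was 0.35, so none is shown to differ. The markers hold *Cnn1* and were chosen for smooth muscle, so a gene that other cells also express lies higher on this scale when the markers are lower.

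With *Myh11*, the smooth muscle myosin heavy chain, as the only reference, the difference of *Cald1* was -0.79 in bladder and 0.86 in colon, both without overlap (exact permutation p = 0.1 each, smallest adjusted p = 0.2 over 14 comparisons). The colon difference was not particular to *Cald1*. There *Tpm1*, *Tpm2*, *Tpm3*, *Tpm4* and *Cnn2* were also higher on this scale without overlap, and *Cnn3* alone overlapped. The log2 fold change of *Myh11* itself was -0.99 in colon and -0.35 in bladder. Whether the genotype difference itself differed between the tissues was tested as the interaction of tissue and genotype on log2 TPM. *Cald1* had an interaction of -0.98 (SE 0.28, 95% interval -1.59 to -0.38, adjusted p = 0.231), that is, a lower log2 fold change in bladder than in colon. It was the only one of the 7 with an unadjusted p under 0.05, and 0 of the 7 were called, against 12.7% and 0.0491% of 16298 genes. The other 6 interactions lay between -0.31 and -0.02, with unadjusted p from 0.161 to 0.951. Since 3 mice gave both tissues, the fit was repeated with the mouse as a block, and the adjusted p of *Cald1* was 0.207.

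**Figure D3:**
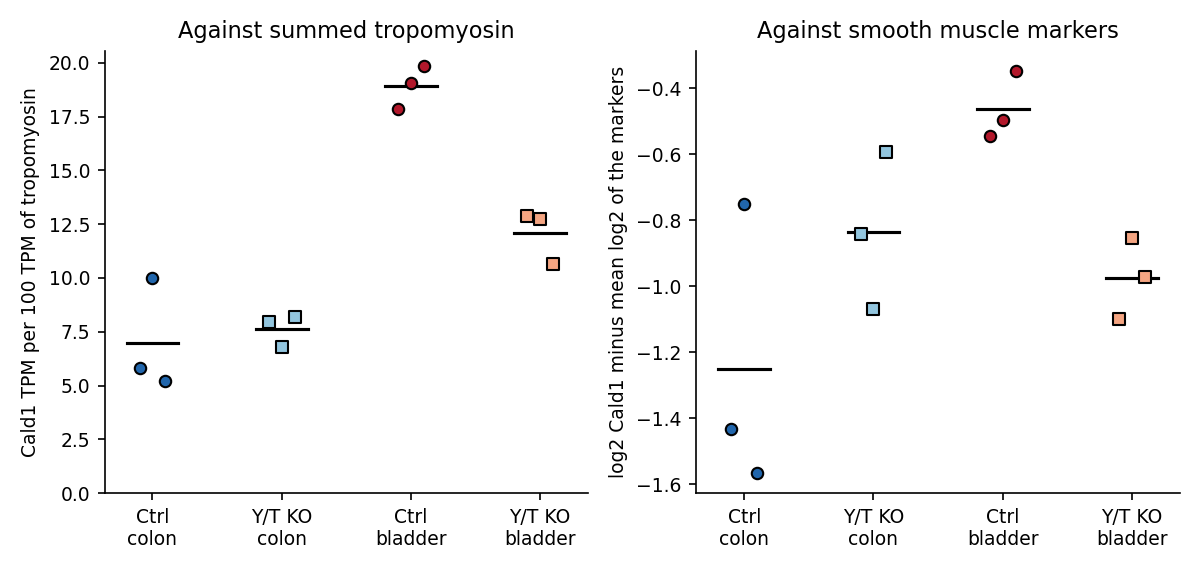
*Cald1* in every library relative to the summed tropomyosins (left, TPM per 100 TPM of *Tpm1* to *Tpm4*) and relative to the 10 smooth muscle markers (right, log2 difference), with a bar at the mean of 3 mice. The Ctrl bladders lie above all other libraries on both scales, and the Y/T KO bladders lie at 10.6 to 12.9 per 100 TPM of tropomyosin.

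The composition of the tropomyosin pool was compared next. The 4 genes summed to 2396, 2261 and 2454 TPM in the Ctrl colons, whereas the Y/T KO colons reached 1721, 1975 and 1895 TPM. In the bladder they summed to 7164, 8408 and 8299.7 TPM in Ctrl and to 6726, 5349.9 and 5089 TPM after knockout. Y/T KO was lower without overlap in colon and bladder alike (exact permutation p = 0.1 in each, the smallest possible).

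*Tpm2* held 48.5% ± 5.85 (SD, n = 3) of the pool in Ctrl colon and 42.1% ± 3.41 in Y/T KO colon. *Tpm1* held 27.7% ± 3.29 and 26.7% ± 0.925. The share of *Tpm3* was 9.54%, 11.1% and 8.74% in the Ctrl colons and 13.5%, 12.1% and 16.3% in the Y/T KO colons, higher without overlap. *Tpm4* held 14.0% ± 1.54 and 17.2% ± 2.14, which overlapped. In the Ctrl bladder *Tpm2* held 61.6% ± 2.55, *Tpm1* 31.5% ± 2.09, *Tpm4* 4.29% ± 0.843 and *Tpm3* 2.62% ± 0.225.

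In the Y/T KO bladder the share of *Tpm3* was 2.91%, 3.85% and 4.91%, against 2.48%, 2.88% and 2.49% in Ctrl, higher without overlap by a narrow margin at the closest pair. The shares of 3.85% and 4.91% were those of mice 783 and 780. Their bladders had 5569.5 and 6168 TPM of the 4 skeletal muscle markers described below, against 1265 TPM in mouse 782. The part of skeletal muscle RNA in this share was not tested. The exact permutation p of the *Tpm3* share was 0.1 in each tissue, and 0.4 after adjustment over the 8 shares tested. The other shares overlapped between genotypes.

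**Figure D4:**
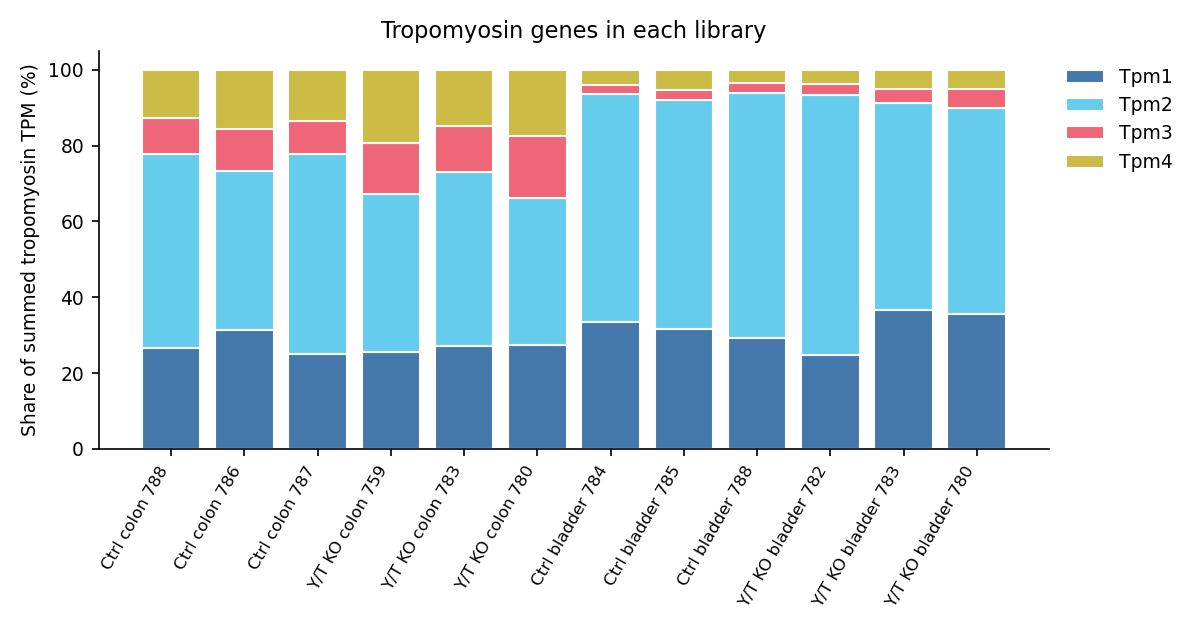
Share of each tropomyosin gene in the summed tropomyosin TPM of each library, as stacked bars that add to 100%. *Tpm3* and *Tpm4* together are larger in every colon than in any bladder, and among the Y/T KO bladders that of mouse 782 has a *Tpm2* share of 68.5% against 54.5% and 54.3% in mice 783 and 780.

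*Cald1* amounted to 17.9, 19.1 and 19.8 TPM per 100 TPM of tropomyosin in the Ctrl bladders and to 12.9, 12.7 and 10.6 in the Y/T KO bladders. The mean was 18.9 ± 0.987 in Ctrl and 12.1 ± 1.25 in Y/T KO (SD, n = 3, exact permutation p = 0.1, adjusted p = 0.2 over both tissues). The 3 Y/T KO libraries were alike on this ratio, while their *Cald1* levels were not. In the colon the means were 6.99 ± 2.61 and 7.65 ± 0.737 (exact permutation p = 0.8).

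Among the calponins, *Cnn1* held 79.1% ± 5.66 of the summed TPM in Ctrl colon and 80.9% ± 4.69 in Y/T KO colon, and 88.8% ± 1.91 and 85.8% ± 2.53 in the bladder. *Cnn2* held 6.16% ± 0.434 and 6.16% ± 0.879 in the colon and 4.67% ± 0.673 and 5.72% ± 0.735 in the bladder. *Cnn3* made up the rest, at 14.8% ± 6.003 and 13.0% ± 5.55 in the colon and 6.55% ± 1.52 and 8.44% ± 2.12 in the bladder. All of these shares overlapped between genotypes (exact permutation p from 0.2 to 1, smallest adjusted p = 0.6 over 6 shares).

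Some of the bladder libraries differed in another muscle. The summed TPM of the 4 skeletal muscle markers *Acta1*, *Ckm*, *Mylpf* and *Tnnt3* was 1927, 1501 and 1364 in Ctrl bladder and 1265, 5569.5 and 6168 in Y/T KO bladder. The Y/T KO bladders of mice 783 and 780 thus stood apart, and all 4 markers were above 0 in every group. In all colons the sum was 18.0 to 31.2 TPM. *Tpm1*, *Tpm2* and *Tpm3* are also skeletal muscle genes. In those same libraries *Tpm2* was at 2917 and 2761 TPM, below the 4608 TPM of mouse 782, and *Tpm1* at 1960.2 and 1814 TPM, above its 1661 TPM. *Tpm3* was at 206 and 250.1 TPM there, against 195 TPM in mouse 782.

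The deposited coverage (reads per base of a gene) points to the same libraries. Coverage was divided by the aligned gigabases and then by FPKM, a ratio whose most frequent value over genes is 1 by this scaling. How coverage is averaged over transcripts is not stated, so the ratio is read only as a sign that the mix of transcripts may differ. For *Tpm2* it was 0.54 in the Y/T KO bladders of mice 783 and 780 and 0.41 to 0.46 in the other 10 libraries. For *Tpm1* it was 0.218 in both and 0.231 to 0.241 elsewhere. For *Tpm3* it was 0.141 and 0.143, against 0.144 to 0.159. The part of skeletal muscle RNA in the values of these genes was not tested.

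**Figure D5:**
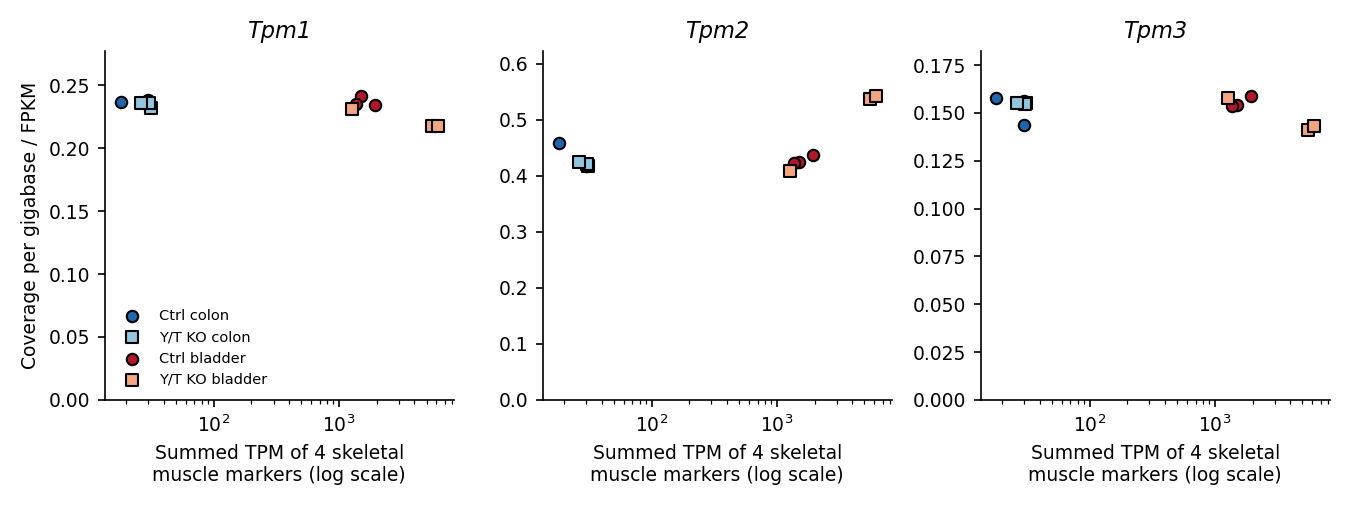
Coverage per aligned gigabase divided by FPKM (vertical axis, no unit) for *Tpm1*, *Tpm2* and *Tpm3* in each of the 12 libraries, against the summed TPM of 4 skeletal muscle markers (horizontal axis, log scale). The 2 Y/T KO bladders furthest to the right, with 5569.5 and 6168 TPM of markers, have the highest ratio for *Tpm2* and the lowest for *Tpm1* and *Tpm3*, for *Tpm3* by a very narrow margin.

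With those 2 bladders left out, the remaining Y/T KO bladder, assumed to vary as the Ctrl bladders do, gave log2 fold changes of -0.64 for *Tpm1*, -0.13 for *Tpm2* and -0.84 for *Cald1*, with adjusted p of 0.351, 0.843 and 0.352. The value of *Tpm2* therefore rested on mice 783 and 780. *Cald1* in mouse 782 alone, at 865 TPM, lay below the lowest Ctrl value of 1280.3 TPM. By coverage the ratio of means between Y/T KO and Ctrl bladder was 0.474 for *Cald1*, 0.689 for *Tpm1* and 0.796 for *Tpm2*, against 0.461, 0.725 and 0.699 by TPM. Which genes separated also depended on the unit. By coverage *Tpm1*, *Tpm2*, *Tpm4* and *Cald1* were lower in Y/T KO bladder without overlap, against 10.3% of all genes, and 0 of the 7 were higher, against 12.3%. In the colon *Tpm1* was lower without overlap by coverage, against 6.40% of all genes, and *Tpm3* higher, against 10.2%, while *Tpm2* overlapped.

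Coverage also set *Cnn3* apart in the colon. Its ratio to FPKM was 0.059 to 0.064 in the 3 colons with low *Cnn3* and 0.080 in the other 3. The coverage of *Cnn3* was 1.53 to 1.90 per aligned gigabase in the former and 4.46 to 4.76 in the latter.

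The partners of these proteins on the filament were taken from a list of 33 genes, which held actins, the other calponin and transgelin genes, pointed-end proteins, smoothelins, calmodulins, thick filament genes and kinases. In the colon 30 passed the filter on low values, 0 were called, and 21 had a log2 fold change below 0 (median -0.19), as did 8758 of all 17500 genes. At an unadjusted p under 0.05 there were 8 lower and 0 higher, against 4.66% and 5.12% of all genes. They included *Myh11* at -0.99 (SE 0.15, limma adjusted p = 0.0859) and *Acta2*, smooth muscle alpha-actin, at -0.89 (SE 0.16, limma adjusted p = 0.134). Of the partners, the paper's DESeq2 test listed *Acta2*, *Actg2* and *Tagln* as down-regulated in both colon and bladder. *Actb* and *Actg1*, the cytoskeletal actins, were at 0.15 and 0.21.

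In the bladder all 33 partners were tested, 0 were called, 19 lay below 0 (median -0.14), and 8 lower and 1 higher had an unadjusted p under 0.05. Of all 18237 genes, 9033 lay below 0, and 8.18% lower and 6.70% higher were under that p. *Actg2*, the enteric actin, was at -1.16 (log2 fold change, SE 0.30, adjusted p = 0.185), *Tagln*, transgelin, -0.87 (SE 0.18, adjusted p = 0.140), and *Cnn1* -0.80 (SE 0.19, adjusted p = 0.159). *Tagln2*, the transgelin of other cells, was at -0.41. Of the pointed-end proteins, which cap the filament or start it, *Tmod1* was at 1.09 (SE 0.37, adjusted p = 0.259), the only partner above 0 at an unadjusted p under 0.05. *Lmod1*, the leiomodin of smooth muscle, was at -0.19, whereas *Lmod2*, *Lmod3* and *Tmod4*, which belong to striated muscle, were at 4.69, 3.37 and 2.85 with SE of 2.29, 1.95 and 2.04. The 2 bladders with high skeletal muscle markers are among these Y/T KO libraries.

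Between the organs of Ctrl mice, 17 of the 33 partners were called higher and 5 lower in bladder, against 26.8% and 24.3% of all genes. The 5 genes of myosin, its kinase and its phosphatase were all called higher, and the calmodulins, which bind caldesmon and calponin, were 0 higher and 1 lower of 3. No partner of 30 was called for the interaction in limma, and 4 had an unadjusted p under 0.05, against 0.0491% and 12.7% of all genes.

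The genes with the most similar pattern were found among 14811 genes with a mean of at least 1 TPM in both tissues, by the mean absolute difference of centred log2 values over the 12 libraries. For *Tpm2* they were *Smtn*, smoothelin of the smooth muscle cytoskeleton, at 0.11, and *Myl9*, the regulatory myosin light chain, at 0.13, against a median of 0.97 over all genes. For *Tpm1* they were *Bag2*, a co-chaperone, and *Abcc4*, an efflux transporter, both at 0.15. For *Cald1* they were *C1qtnf7* at 0.23 and *Ptgis*, prostacyclin synthase, at 0.25, so no gene tracked it as closely as those of *Tpm2*. *C1qtnf7* was at 50.8 ± 4.98 TPM in Ctrl bladder and 28.2 ± 2.60 TPM in Y/T KO bladder.

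*Tpm3* was nearest to *Gtf2f2*, a subunit of a general transcription factor, at 0.08, and to *Mob3c* at 0.09. *Tpm4* was nearest to *Anxa1*, annexin A1, at 0.06, and to *Hnrnpf*, an RNA-binding protein, at 0.09. *Cnn2* was nearest to *Lsp1*, an actin-binding protein of leukocytes, and to the sphingosine-1-phosphate receptor *S1pr2*, both at 0.13. *Cnn3* had *Arid5b* at 0.20 and *Btla*, a lymphocyte receptor, at 0.22. Within the 7, *Tpm3* and *Tpm4* were nearest to each other at 0.17, and *Tpm1* and *Cnn2* at 0.20. These are descriptions over libraries that share tissue and genotype.

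Some of the values may hold reads of near copies. *Tpm3-rs7* is 99.1% identical to *Tpm3* over 2108 bases of transcript and was listed at 34.8 to 53.2 TPM. The split of reads between the 2 genes is uncertain. *Gm7809* matches *Tpm4* over 743 bases at 96.8% identity and was at 4.85 to 9.85 TPM. *Gm4815* and *Gm17936* match *Cnn3* over 994 bases at 96.6% and 95.5% identity, and were at 1.14 to 7.23 TPM and 0.698 to 3.74 TPM. *AC016791.2* matches *Cnn2* over 928 bases at 89.3% identity and had no TPM value here. No such copy of *Tpm1*, *Tpm2* or *Cald1* was found among the transcripts of genes outside the 7. The 7 genes were not compared with each other, so reads shared between the tropomyosin genes were not examined. Of the genes that overlap the 7, the opposite-strand *Gm13861* inside *Cald1* was the highest at 0.156 to 6.28 TPM, and whether strand was used in counting is not given in the sources used here.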

How the data were processed

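Each library was 1 whole-tissue homogenate of 1 mouse. Per the labels and methods, stranded polyadenylated libraries were sequenced on a NextSeq instrument, and the submitters' processing notes name bcl2fastq, FastQC, HISAT2, StringTie and DESeq2, with GRCm38, and give no versions. The TPM, FPKM and coverage (a signal in reads per base) were made by the authors with StringTie and deposited per gene and library. The counts behind the authors' own test were not analysed here. Groups come from the sample labels.

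TPM was summed by gene ID and rescaled with size factors (median of ratios). A gene entered the fit if 3 or more of the 6 libraries of a tissue reached 0.5 TPM. The log2 of TPM plus 0.1 was fitted with limma 3.58.1 in R 4.3.3 (trend and robust options, Benjamini-Hochberg over all genes tested, called at an adjusted p under 0.05). Fold changes are on this scale, which understates those of low genes. The contrasts between tissues and the interaction used all 12 libraries. Shares and ratios were compared by two-sided exact permutation tests on deposited TPM, and an exact permutation of 3 against 3 cannot go below p = 0.1. Near copies were sought with blastn 2.17.0 among transcripts of genes outside the 7 (at least 80% identity over 200 bases). The fits within each tissue were also run on simulated data with independent noise per gene. Those data did not imitate differences in cell types between libraries, and their outcome is not reported here.

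Mouse numbers pair colon and bladder of the same animal in 3 mice. The deviations of such libraries from their group means correlated at -0.016 to 0.089 over genes, with a mean of 0.044, and at a mean of -0.0089 for 15 pairs of different mice. Depth is known only as aligned bases, inferred from the modal quotient of coverage and FPKM, and not as counts per gene, and each difference was set against the spread of the mice.

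All 7 genes passed the filter. They and the lists were chosen with earlier results of these data known. The genes named beyond the lists are, for each of the 7, the 2 with the smallest mean difference in pattern, and *Yap1* and *Wwtr1*. Alternatives were other pseudocounts, filters, units and limma options, each library left out, a joint fit and a mouse block. Coverage, a term for mice that gave both tissues, and 1 Y/T KO bladder alone were chosen after seeing the data.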

Additional observations from a re-analysis of the deposited data

How the results depend on the processing

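The joint fit of all 12 libraries called 1 gene, *Cald1*, in Y/T KO bladder, against 0 in the fit of bladder alone. All other alternatives kept 0 of the 7 called in colon, bladder and interaction, and kept the counts between tissues within 1.5 times. With the mouse as a replicate block, 0 were called for the interaction, and 6 were called between tissues in Ctrl and 6 in Y/T KO, against 5 and 6 without it. *Cnn3* joined them in Ctrl (adjusted p = 0.0491), and no other call changed. *Tpm3* between tissues in Ctrl was called in 9 of 21 alternatives.

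Small values changed sign. *Tpm4* in the colon was at 0.014 on FPKM, 0.0079 with a term for mice that gave both tissues and 0.019 on coverage, and *Cnn3* there at 0.073 with that term. *Tpm3* in the bladder was at -0.13 with 1 Y/T KO bladder. The interaction of *Tpm2* was 0.18 on coverage and 0.39 with 1 Y/T KO bladder, and that of *Cnn3* 0.17 on coverage. *Tpm4* between tissues in Ctrl was at 0.024 on deposited TPM. Leaving out 1 library gave -0.26 to 0.069 for *Cald1* and -0.065 to 0.038 for *Tpm4* in the colon, and -0.041 to 0.17 for *Tpm3* in the bladder. For the interaction it gave -0.17 to 0.0045 for *Tpm1*, -0.23 to 0.17 for *Tpm2*, -0.21 to 0.023 for *Tpm3* and -0.32 to 0.34 for *Cnn3*. The cause was not tested.

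With *Myh11* alone as the reference, the differences moved to 0.62 (*Tpm1*), 0.47 (*Tpm2*), 1.18 (*Tpm3*), 0.96 (*Tpm4*), 0.86 (*Cald1*) and 0.85 (*Cnn2*) in the colon and to -0.20 (*Tpm2*), -0.79 (*Cald1*) and -0.11 (*Cnn2*) in the bladder, and *Tpm1* there was at -0.12. With 1 library left out, the difference in share in the bladder ran from -7.20 to -0.068 percentage points for *Tpm2* and from -1.32 to 4.65 for *Tpm1*, and that of *Tpm3* from 0.76 to 1.77 in bladder and from 3.01 to 5.10 in colon. With 3 mice per group the intervals are wide, and an absent call does not show equal levels.

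Over all genes, 14 were called lower and 10 higher in Y/T KO colon, and 40 lower and 14 higher in Y/T KO bladder. The alternatives gave 1 to 43 lower and 0 to 30 higher in colon, and 8 to 48 lower and 0 to 25 higher in bladder. The interaction called 3 lower and 5 higher, and 1 to 13 lower and 3 to 19 higher under the alternatives.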
